A study of Mus musculus with 6 samples.

Results

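Inhibitory checkpoint receptors are surface proteins that restrain T cells after activation. The genes described here are Lag3, Pdcd1, Ctla4, Havcr2, Tigit, Cd160, Btla, Cd200 and Lilrb4a in converted double-negative T cells (cDNT). They were chosen by name, as genes for inhibitory receptors or their partners, by a rule that uses no measured value, but with earlier results of these data known. They are 9 of the 29393 genes in the count table, and all 9 passed the filter of at least 10 counts in at least 3 libraries, as did 14916 genes in all. The cDNT were mouse T cells (C57BL/6, adult, spleen) that had been made in culture from CD4+CD25- T cells kept with IL-2 and mature dendritic cells, and were then sorted as lacking CD4 and CD8. The methods of the study name CD45.1-positive mice as the source of the CD4+CD25- T cells, and lymph nodes as well as spleens. One group was kept for 24 h with IL-10 at 50 ng/ml (W/ IL-10) and the other was kept without it (W/O IL-10), with 3 libraries each. The methods of the study add anti-CD3/CD28 antibodies to the stimulation, whereas the sample labels do not mention these antibodies and give the source of the W/O IL-10 libraries as without stimulation. Whether the W/O IL-10 cells received the antibodies is not given in the sources used here, so an effect of IL-10 and an effect of the antibodies cannot be told apart if they did not. The series was described as done in duplicate, although it lists 3 libraries per group. The labels do not say whether the 3 libraries of a group came from separate cultures or animals, so the p-values measure the spread between these libraries, which may be technical.

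Checkpoint receptors share a common logic. Most carry motifs in their cytoplasmic tails that recruit phosphatases or other inhibitory adaptors once a ligand on a neighboring cell is bound, and most appear on T cells after antigen receptor signaling. LAG-3 binds MHC class II and PD-1 binds PD-L1 and PD-L2. CTLA-4 competes with the activating receptor CD28 for CD80 and CD86, and TIGIT competes with CD226 for CD155. TIM-3, the product of Havcr2, binds galectin-9 and other ligands. CD160 and BTLA bind HVEM, the product of Tnfrsf14. CD200 is itself a ligand, for the inhibitory receptor CD200R, and the product of Lilrb4a is an immunoglobulin-like receptor with inhibitory motifs.

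With IL-10, the mRNAs of 5 of the 9 genes were higher by at least 1.5-fold and passed the test. Lag3 and Ctla4 rose 2.17-fold and 2.37-fold, Cd160 and Lilrb4a rose 1.85-fold and 1.72-fold, and Pdcd1 rose 1.52-fold. Tigit and Havcr2, which are expressed at a high level in these cells, did not pass, and neither did the low-level genes Btla and Cd200. The test was the quasi-likelihood test of edgeR, and a gene was called when its fold change was at least 1.5 and its adjusted p-value (Benjamini-Hochberg, over all 14916 genes) was under 0.05. By the same rule DESeq2 called 5 up and 1 (Cd200) down of the 9, against 176 up and 183 down of all 14916 genes. By an unadjusted p under 0.05 (edgeR), 6 of the 9 were higher and 1 lower. The share of all tested genes at an unadjusted p is not given, here or for the lists below, so these counts have no background beside them. Among all tested genes 0.778% were called upregulated and 0.677% downregulated by this rule in edgeR, against 5 and 0 of the 9. An adjusted p under 0.05 at any fold change was reached by 5 of the 9 genes and by 2.19% of all tested genes. The 3 W/ IL-10 libraries lay above the 3 W/O IL-10 libraries for 6 of the 9 genes, as for 11.3% of tested genes, and below them for 1 of the 9, as for 11.2%. The median log2 fold change of the 9 genes was 0.61, and that of all tested genes was 0.006. The number of genes that passed depended on the libraries used. It lay between 2 and 4 when 1 library was left out, with 2 (Lag3 and Cd160) when W/ IL-10 replicate 3 was left out and 3 when either W/O IL-10 replicate 2 or W/ IL-10 replicate 1 was. Over all tested genes, the calls went from 217 to 35, 75 and 57 in the same refits, respectively.

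**Figure D1:**
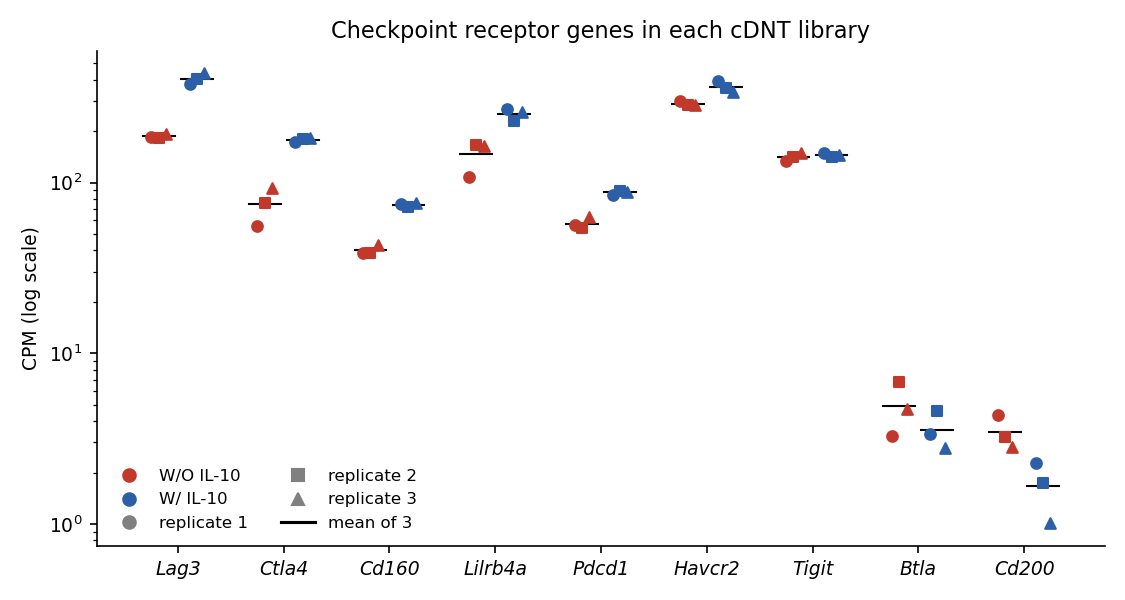
Level of each of the 9 genes in each library in CPM (log scale), with W/O IL-10 in red, W/ IL-10 in blue, a marker shape for each replicate number and a black line at the mean of 3. The blue points of Lag3 (377 to 437 CPM) lie above its red points (183 to 193 CPM), while those of Tigit overlap (141 to 149 against 133 to 149.8 CPM).

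Levels are given as CPM, which are counts scaled to a common library total. The 6 libraries held 21619420 to 23967088 counts on genes, so 3 counts corresponded to 0.125 to 0.139 CPM, a limit that covers counting error only. Library composition moved with the groups in one technical respect. The median log2 fold change was 0.29 over the 693 tested genes with up to 40% GC in their exons and -0.12 over the 492 genes above 60%, and W/O IL-10 replicate 1 lay lowest in the first of these sets (median -0.64 from the mean of the libraries, log2 scale). The GC contents of the 9 genes ran from 41.4% (Btla) to 59.3% (Lag3), so none lay in these 2 sets. Over the 2870 genes between 40% and 45% GC, which include Ctla4 and Lilrb4a, the median was 0.12, with W/O IL-10 replicate 1 at -0.2. In a fit corrected for GC content and length, the log2 fold changes of Lag3 and Pdcd1 were 1.23 and 0.68. Those of Ctla4, Cd160 and Lilrb4a were 1.16, 0.83 and 0.66. The markers of the sorted population were also checked. Cd4 lay at or below 1.55 CPM in every library, and Foxp3, the factor that defines regulatory T cells, at or below 1.17 CPM. Cd8a, by contrast, was present in every library of cells sorted as lacking CD8, at 95.7 to 119 CPM W/O IL-10 and 138 to 168 CPM W/ IL-10.

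Sequence upstream of the start site was available in RefSeq (GRCm38.p6) for 7 of the 9 genes, in 8 windows, of which 4 are shown. Each window covers the 250 bases before an annotated transcript start, written 5′ to 3′ in the direction of the gene. Ctla4, Pdcd1 and Cd160 are shown because their mRNA rose, and Tigit because it is abundant and did not pass. Capitals mark matches, on either strand, to a STAT motif (TTCNNNGAA), an AP-1 motif (TGANTCA) or the core of the NFAT motif (GGAAA).

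Ctla4, chr1:60908775-60909024, plus strand: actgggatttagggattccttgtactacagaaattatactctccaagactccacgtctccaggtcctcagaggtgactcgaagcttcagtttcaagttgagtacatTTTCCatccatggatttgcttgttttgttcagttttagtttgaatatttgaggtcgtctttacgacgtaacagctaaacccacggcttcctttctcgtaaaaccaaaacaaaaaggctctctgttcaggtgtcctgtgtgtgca

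Pdcd1, chr1:94052554-94052803, minus strand: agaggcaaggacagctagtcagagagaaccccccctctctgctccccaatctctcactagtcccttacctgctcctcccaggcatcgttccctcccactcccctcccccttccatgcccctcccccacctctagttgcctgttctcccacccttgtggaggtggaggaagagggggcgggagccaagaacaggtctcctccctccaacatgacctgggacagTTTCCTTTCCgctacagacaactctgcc

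Cd160, chr3:96814522-96814771, minus strand: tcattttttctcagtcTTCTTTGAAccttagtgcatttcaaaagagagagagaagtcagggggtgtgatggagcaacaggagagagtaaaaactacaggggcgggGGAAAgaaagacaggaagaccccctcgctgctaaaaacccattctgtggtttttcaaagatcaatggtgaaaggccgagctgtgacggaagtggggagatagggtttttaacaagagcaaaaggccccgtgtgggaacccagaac

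Tigit, chr16:43664185-43664434, minus strand: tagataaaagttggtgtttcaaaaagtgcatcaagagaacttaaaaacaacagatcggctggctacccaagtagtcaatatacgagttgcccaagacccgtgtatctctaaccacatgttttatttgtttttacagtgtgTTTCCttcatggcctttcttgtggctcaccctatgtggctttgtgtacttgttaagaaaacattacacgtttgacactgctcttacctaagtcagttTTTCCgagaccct

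The Ctla4 window and the Cd160 window shown lie inside the longer spans that GENCODE gives these genes. The other Cd160 window, chr3:96829352-96829601, borders the end of that span, and it had 0 matches to the STAT, AP-1 or NFAT core letters. The Cd160 window shown held the only STAT match among the 8 windows, with its first base at position -234 from the start, and 7.02% of the 32851 RefSeq windows of this length hold one. NFAT core matches were present in all 4 windows shown, 2 each for Pdcd1 and Tigit, but in none of the other windows of these genes. The letters are so short that 55.6% of all windows hold them. An AP-1 match was found only in the Havcr2 window, against 6.75% of all windows. A RUNX motif (TGTGGT) was found for Havcr2, Tigit, Btla and both windows of Cd160, against 14.0% of all windows. The Cd200 window had none of these motifs. These matches are letters in a window and not measured binding sites.

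Lag3 was called in every setting tried, alone among the 9 genes. LAG-3 lowers T cell activation when it meets MHC class II. Its gene (ENSMUSG00000030124, GRCm38 chromosome 6, 124904361 to 124911705, minus strand) was measured at 186, 183 and 193 CPM in replicates 1, 2 and 3 of the W/O IL-10 group and at 377, 406 and 437 CPM in those of the W/ IL-10 group. Every W/ IL-10 library was far above every W/O IL-10 library. The mean went from 187 ± 5.44 to 407 ± 30.3 CPM (SD, 3 libraries each), for a log2 fold change of 1.12 (standard error 0.08, 95% interval 0.93 to 1.30, adjusted p = 0.000544, edgeR). Lag3 ranked 8 by p-value among all tested genes. Over the 15 other settings its log2 fold change was 1.06 to 1.23, and it was the only one of the 9 genes that passed when the null hypothesis itself was a 1.5-fold change.

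Ctla4 had the highest fold change of the 9 genes but a wider spread among the controls. Its gene (ENSMUSG00000026011, chromosome 1, 60887000 to 60915832, plus strand) was at 55.9, 76.1 and 93.4 CPM W/O IL-10 and at 172, 179 and 182 CPM W/ IL-10. The W/ IL-10 libraries were close together, whereas the W/O IL-10 libraries were spread out, with replicate 1 the lowest and replicate 3 the highest. The mean went from 75.1 ± 18.7 to 178 ± 5.0 CPM (SD, 3 libraries each), for a log2 fold change of 1.25 (standard error 0.16, 95% interval 0.89 to 1.60, adjusted p = 0.00831, edgeR). The call was lost without W/ IL-10 replicate 1 (adjusted p = 0.0524) and without W/ IL-10 replicate 3 (adjusted p = 0.0704), although the log2 fold changes stayed at 1.27 and 1.23. Without W/O IL-10 replicate 1 the log2 fold change was 1.06.

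Pdcd1, the gene of PD-1, rose by the least of the genes that passed. It (ENSMUSG00000026285, chromosome 1, 94038305 to 94052553, minus strand) was at 56.1, 54.0 and 62.5 CPM W/O IL-10 and at 84.9, 89.1 and 88.6 CPM W/ IL-10. The groups did not overlap, and each was narrow. The mean went from 57.5 ± 4.43 to 87.5 ± 2.27 CPM (SD, 3 libraries each), for a log2 fold change of 0.61 (standard error 0.08, 95% interval 0.43 to 0.78, adjusted p = 0.00846, edgeR). The call was lost when any of 3 libraries was left out. Without W/O IL-10 replicate 1 the log2 fold change was 0.58, just under the 1.5-fold threshold, without W/O IL-10 replicate 2 it was 0.56 (adjusted p = 0.0556, edgeR), and without W/ IL-10 replicate 3 it was 0.60, past that threshold, but the adjusted p was 0.0704.

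Of the HVEM-binding receptors, CD160 and BTLA, the mRNA of Cd160 rose and that of Btla did not pass. Cd160 (ENSMUSG00000038304, chromosome 3, 96798763 to 96829351, minus strand) was at 38.6, 38.8 and 43.2 CPM W/O IL-10 and at 74.9, 72.0 and 75.6 CPM W/ IL-10. The spread within each group was a small part of the gap between them. The mean went from 40.2 ± 2.58 to 74.2 ± 1.92 CPM (SD, 3 libraries each), for a log2 fold change of 0.88 (standard error 0.08, 95% interval 0.71 to 1.06, adjusted p = 0.00119, edgeR). It was called in 14 of the 15 other settings, all but that with a 1.5-fold null hypothesis (adjusted p = 0.146). Exons of Pdzk1 on the opposite strand cover 2.6% of its exon bases.

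Btla (ENSMUSG00000052013, chromosome 16, 45224315 to 45257670, plus strand) was at 3.26, 6.82 and 4.69 CPM W/O IL-10 and at 3.35, 4.57 and 2.80 CPM W/ IL-10. These values rest on 64 to 165 counts per library, and the groups overlapped. The log2 fold change was -0.46 (standard error 0.30, 95% interval -1.14 to 0.21, adjusted p = 0.527, edgeR), an interval that holds both a fall past 1.5-fold and a small rise. BTLA is abundant on B cells, and the markers of B cells were followed in the same libraries. Their summed level over 7 genes was 64.0, 159 and 108 CPM W/O IL-10 and 63.9, 109 and 62.3 CPM W/ IL-10, each in the order of the replicates (two-sided exact permutation test, p = 0.4, adjusted p = 0.480 over 6 marker lists). All 7 B cell markers were detected and lower in mean W/ IL-10 (median log2 fold change -0.48), and 0 were called by edgeR, DESeq2 or limma-voom or had an unadjusted p under 0.05 (edgeR). W/O IL-10 replicate 2 was the highest and W/ IL-10 replicate 3 the lowest library for both Btla and this sum, and the part of B cell RNA in the Btla values was not tested. In bulk RNA, fewer cells of a type and less RNA per cell cannot be told apart.

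Cd200, the ligand of CD200R, was the only one of the 9 genes whose W/ IL-10 libraries all lay below the W/O IL-10 libraries. Its gene (ENSMUSG00000022661, chromosome 16, 45382135 to 45409053, minus strand) was at 4.36, 3.22 and 2.84 CPM W/O IL-10 and at 2.28, 1.73 and 1.01 CPM W/ IL-10, or 66 to 107 against 23 to 47 counts. The level was low throughout, and the mean went from 3.48 ± 0.793 to 1.67 ± 0.639 CPM (SD, n = 3). The log2 fold change of -1.06 (standard error 0.32, 95% interval -1.79 to -0.33) did not pass the test (adjusted p = 0.155, edgeR). It was called downregulated with DESeq2 (adjusted p = 0.0483), with no filter on low counts (adjusted p = 0.0108, edgeR) and after correcting for GC content and exon length in a fit with a replicate block (adjusted p = 0.0276, edgeR). Cd200r1, the gene of its receptor, was at 6.37 ± 1.25 CPM W/O IL-10 and 4.22 ± 0.646 CPM W/ IL-10 (SD of 3 libraries), with a log2 fold change of -0.60 that did not pass (adjusted p = 0.213, edgeR).

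**Figure D2:**
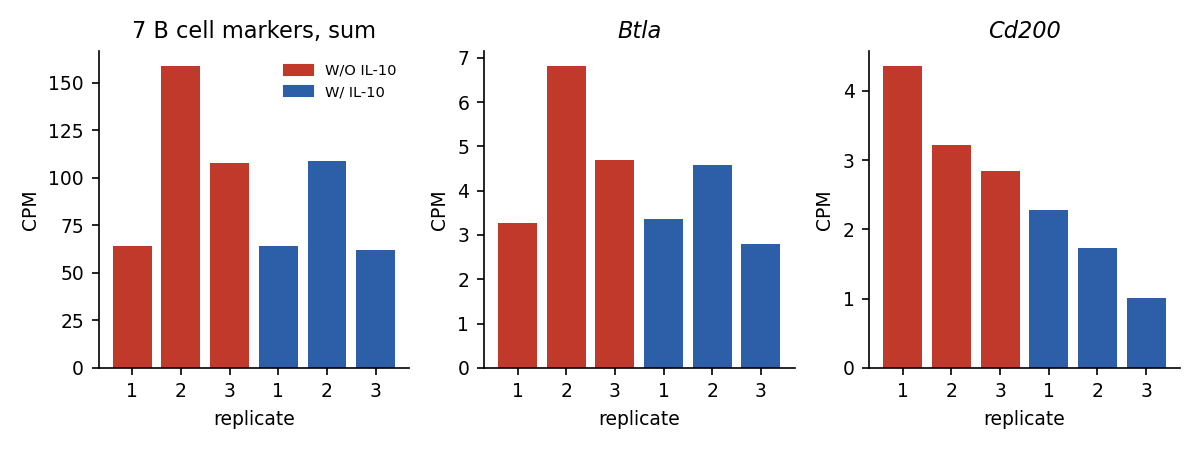
Summed level of 7 B cell marker genes (left), Btla (middle) and Cd200 (right) in each library, in CPM from 0, with W/O IL-10 in red and W/ IL-10 in blue. Btla and the B cell marker sum were both highest in W/O IL-10 replicate 2 (6.82 and 159 CPM), whereas Cd200 was highest in W/O IL-10 replicate 1 (4.36 CPM).

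Havcr2 and Tigit were among the 3 highest of the 9 mRNAs per kilobase of exon in either group. Havcr2 (ENSMUSG00000020399, chromosome 11, 46454935 to 46481255, plus strand) was at 302, 284 and 284 CPM W/O IL-10 and at 391, 359.5 and 341 CPM W/ IL-10. The groups did not overlap, but the gap between the nearest libraries was small beside the level. The log2 fold change was 0.33 (standard error 0.08, 95% interval 0.14 to 0.51, adjusted p = 0.0861, edgeR), which did not pass, and the upper bound lies under a 1.5-fold change. The adjusted p fell under 0.05 with DESeq2 (0.0106), with no filter on low counts (0.0485), with the correction for GC content and length in a replicate block (0.0290) and without W/O IL-10 replicate 1 (0.0392), but the fold change stayed under 1.5 in all 15 settings.

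Tigit (ENSMUSG00000071552, chromosome 16, 43648867 to 43664146, minus strand) was at 133, 142 and 149.8 CPM W/O IL-10 and at 149, 141 and 145 CPM W/ IL-10. The ranges overlapped almost wholly. The mean fold change was 1.02, with a 95% interval of 0.913 to 1.15 (log2 fold change 0.03, standard error 0.07, adjusted p = 0.871, edgeR), so a change of 1.5-fold in either direction lies outside the interval. Without W/O IL-10 replicate 1 the log2 fold change was -0.02.

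Lilrb4a passed by the narrowest margin in the adjusted p, and its counts are uncertain. The gene (ENSMUSG00000112148, chromosome 10, 51490956 to 51496611, plus strand) was at 108, 167 and 164 CPM W/O IL-10 and at 269, 228 and 259 CPM W/ IL-10. The groups did not overlap, and W/O IL-10 replicate 1 was again the lowest library. The mean went from 146 ± 33.6 to 252 ± 21.2 CPM (SD, 3 libraries each), for a log2 fold change of 0.78 (standard error 0.16, 95% interval 0.42 to 1.14, adjusted p = 0.0447, edgeR). The call was kept in 8 of the 15 other settings. It was lost with a replicate block (log2 fold change 0.81, adjusted p = 0.0592), against a 1.5-fold null hypothesis and when any library but W/O IL-10 replicate 1 was left out (log2 fold changes of 0.74 to 0.88), and without W/O IL-10 replicate 1 the log2 fold change was 0.59 (adjusted p = 0.00305, edgeR).

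Of the 50-base stretches of its transcripts, 47.2% also occur, on either strand, in transcripts of other genes, of which Gm49339, Lilr4b and Gm40645 share the most. Exons of Gm49339 on the same strand cover 35.3% of its exon bases. How the counting shared out reads among these genes was not tested. The paralog Lilr4b, which was placed in the list of other inhibitory receptors, rose as well, from 532 ± 52.3 to 882 ± 56.2 CPM (SD of 3 libraries, log2 fold change 0.73, adjusted p = 0.0110, edgeR). Whether its product is inhibitory was not examined. Whether the same reads entered the counts of both paralogs was not tested.

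**Figure D3:**
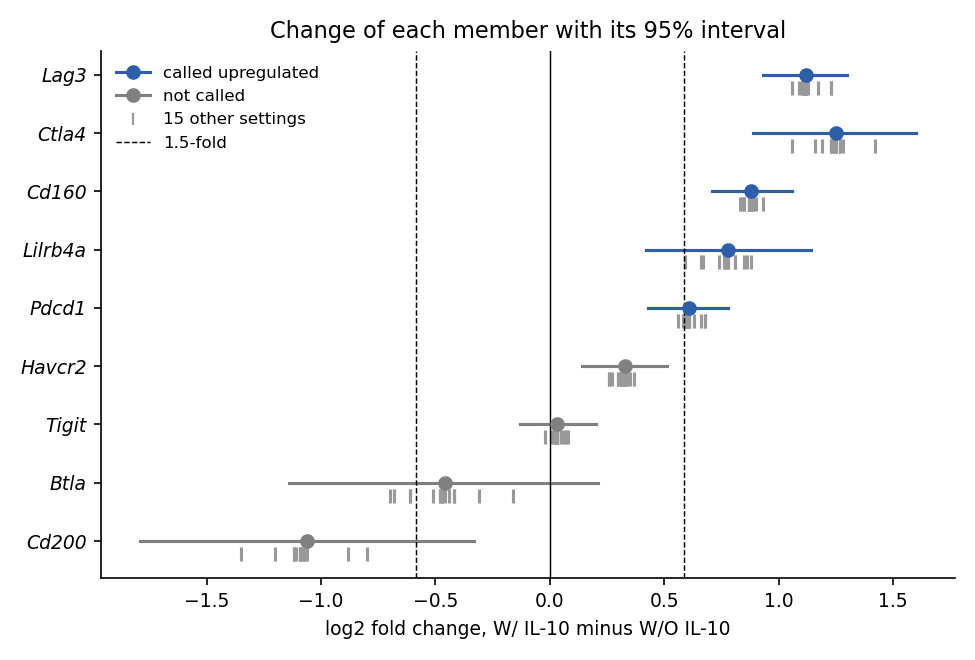
Log2 fold change of each of the 9 genes (W/ IL-10 minus W/O IL-10) with its 95% interval, blue where the gene was called upregulated and gray where it was not. Small ticks under each line are the 15 other settings and dashed lines mark 1.5-fold. The interval of Lag3 (0.93 to 1.30) lies wholly past the line, that of Pdcd1 (0.43 to 0.78) spans it, and that of Tigit spans 0.

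The order of the receptors by level was compared per kilobase of exon, because genes differ in length. W/O IL-10, Tigit was highest at 154 ± 9.01 CPM per kb (SD, n = 3), followed by Havcr2 at 107 ± 3.89 and Lag3 at 88.8 ± 2.58 CPM per kb. Ctla4 (32.2 ± 8.04), Pdcd1 (29.8 ± 2.30) and Lilrb4a (28.0 ± 6.42 CPM per kb) came next, and the libraries of neighbors in this trio overlapped, so their order was not resolved. Cd160 followed at 15.2 ± 0.978 CPM per kb, and Btla and Cd200, which overlapped each other, were near 1 CPM per kb.

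W/ IL-10, Lag3 moved from below Havcr2 to the top at 193 ± 14.4 CPM per kb, above Tigit (158 ± 4.03) and Havcr2 (134 ± 9.19 CPM per kb), with no overlap between neighbors. Ctla4 at 76.4 ± 2.15 CPM per kb was now separate from Lilrb4a (48.2 ± 4.05) and Pdcd1 (45.4 ± 1.18 CPM per kb), which still overlapped each other. The order in both groups rests on the division by annotated exon length. In CPM, Lag3 lay above Tigit already W/O IL-10 (183 to 193 against 133 to 149.8 CPM). W/ IL-10, Lag3 overlapped Havcr2 in CPM (377 to 437 against 341 to 391 CPM). Lilrb4a lay above Ctla4 there (252 ± 21.2 against 178 ± 5.0 CPM, SD, n = 3). By their mean over the 6 libraries, Tigit, Lag3 and Havcr2 lay above 98.2%, 98.0% and 97.7% of tested genes, and Ctla4, Lilrb4a and Pdcd1 above 94.2%, 91.1% and 90.9%. Cd160 lay above 82.9%, whereas Btla and Cd200 lay above 25.3% and 18.9%.

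**Figure D4:**
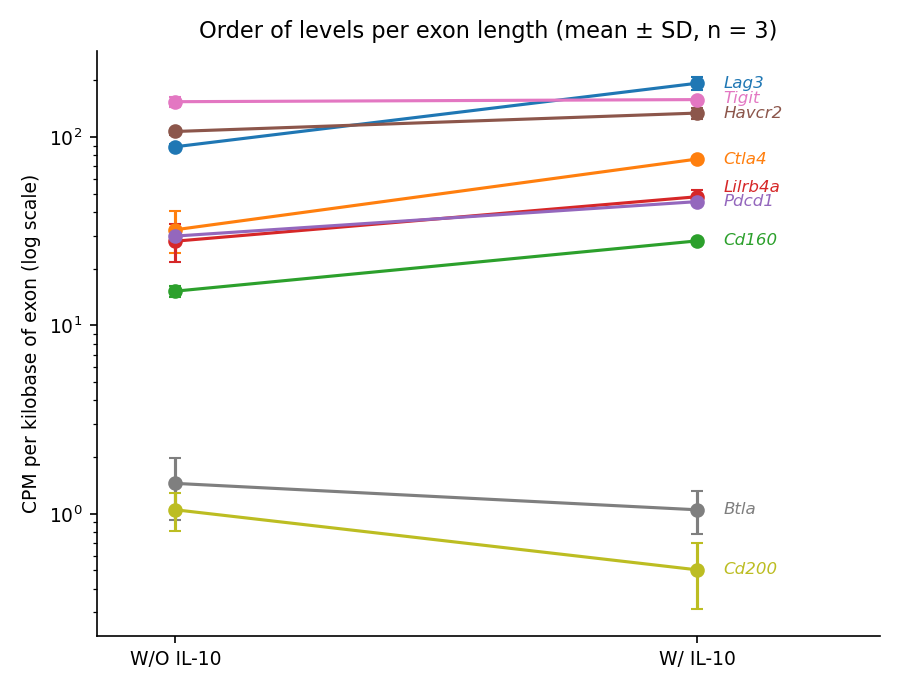
Mean level of the 9 genes in CPM per kilobase of exon (log scale) in the W/O IL-10 group and the W/ IL-10 group, with bars of 1 SD over 3 libraries. Per kb, Lag3 crosses Havcr2 and Tigit to become the highest (193 CPM per kb), whereas in CPM it lies above Tigit in both groups. Btla and Cd200 stay at or below 1.45 CPM per kb.

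Competing receptors were compared as ratios within each library, in 3 pairs chosen after their values were seen. CD28 is the activating receptor that shares the ligands of CTLA-4. The ratio of Ctla4 to Cd28 per kb was 0.701, 0.666 and 0.747 W/O IL-10 and 1.12, 1.49 and 1.34 W/ IL-10. Per kb, Ctla4 was thus below Cd28 in every W/O IL-10 library and above it in every W/ IL-10 library. This crossing rests on the division by annotated exon length. In CPM, Ctla4 was below Cd28 in every library of either group (172, 179 and 182 against 405, 316 and 358 CPM W/ IL-10). Cd28 itself was at 279 ± 62.0 and 359.6 ± 44.4 CPM (SD, n = 3) and did not pass (log2 fold change 0.36, adjusted p = 0.345, edgeR). The ratio of Tigit to Cd226, its activating counterpart, was 59.7, 56.8 and 67.1 W/O IL-10 and 55.4, 65.4 and 85.8 W/ IL-10, and these overlapped. The ratio of Cd160 to Btla was 15.2, 7.32 and 11.8 W/O IL-10 and 28.8, 20.3 and 34.7 W/ IL-10, without overlap. Two-sided exact permutation tests on the log2 ratios gave p = 0.1 for Ctla4 to Cd28 and for Cd160 to Btla (adjusted p = 0.150 over the 3 pairs) and p = 0.7 for Tigit to Cd226 (adjusted p = 0.700). With 3 libraries against 3 the smallest p this test can give is 0.1.

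Of the listed ligands of the receptors, none passed the test. The list held no MHC class II gene, although LAG-3 binds MHC class II. H2-Aa and H2-Ab1, counted with the dendritic cell markers, had log2 fold changes of -0.54 and -0.58 and did not pass (adjusted p = 0.420 and 0.411, edgeR). Of 15 genes for ligands and counter-receptors, 11 were tested, 0 were called in either direction and 0 reached an adjusted p under 0.05 (edgeR), and the median log2 fold change was -0.05. By an unadjusted p under 0.05, 2 were higher and 1 lower, and DESeq2 and limma-voom called 0. The most abundant were Lgals3 (galectin-3, a ligand of LAG-3, log2 fold change -0.05), Hmgb1 (a TIM-3 ligand, 0.24), Lgals9 (galectin-9, -0.09) and Cd274 (PD-L1, 64.1 ± 6.39 and 67.7 ± 5.0 CPM, SD, n = 3, log2 fold change 0.08). The 4 genes that were not tested, Fgl1, Clec4g, Nectin2 and Nectin3, had mean levels at or below 0.418 CPM.

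Other inhibitory receptors of lymphocytes moved in both directions. Of 18 genes 17 were tested, 2 rose and 1 fell, with a median log2 fold change of -0.19. An adjusted p under 0.05 was reached by 4, the other one being Cd5 (log2 fold change -0.47, adjusted p = 0.0467, edgeR), and by an unadjusted p under 0.05, 4 were higher and 6 lower. DESeq2 called 2 up and 2 down, with Cd300a as the added gene. Lilr4b was counted among the 2 that rose, although whether its product is inhibitory was not examined. Besides Lilr4b, Klrc1, the gene of NKG2A, rose from 22.8 ± 5.75 to 56.6 ± 10.2 CPM (SD of 3 libraries, log2 fold change 1.31, adjusted p = 0.0147, edgeR). Cd72, an inhibitory receptor best known from B cells, fell from 35.0 ± 0.712 to 22 ± 2.42 CPM (SD of 3 libraries, log2 fold change -0.67, adjusted p = 0.0147, edgeR). None of these calls held when either W/ IL-10 replicate 1 or W/ IL-10 replicate 3 was left out, and those of Lilr4b and Cd72 were also lost without W/O IL-10 replicate 2. The other abundant receptors of the list, Pecam1 (log2 fold change -0.26), Vsir (VISTA, 0.18), Cd96 (0.15) and Cd244a (2B4, 0.34), were not called.

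The activating counterparts of the receptors gave no call. All 11 genes were tested, 0 reached an adjusted p under 0.05 (edgeR), and the median log2 fold change was 0.09. By an unadjusted p under 0.05, 2 were higher and 2 lower, and DESeq2 and limma-voom called 0. Tnfrsf9 (4-1BB, log2 fold change 0.10), Icos (0.09) and Cd27 (0.18) were the most abundant beside Cd28. Genes for signaling partners of inhibitory receptors, such as the phosphatases and ubiquitin ligases they recruit, were likewise without a call by edgeR, DESeq2 or limma-voom in 17 of 17 genes, with a median of 0.02 and 4 genes higher at an unadjusted p under 0.05. Cblb, an E3 ligase that restrains T cell activation, was at 709 ± 34.0 and 764 ± 53.4 CPM (SD of 3 libraries, log2 fold change 0.11), and Cbl, Fyn and Inpp5d had log2 fold changes of -0.22, 0.16 and -0.10. Of 6 genes for the trafficking, shedding and turnover of CTLA-4, LAG-3 and PD-1, 0 were called by any of these tools, 0 had an unadjusted p under 0.05 and the median was 0.03. Among these, Adam10 and Adam17, whose proteases shed LAG-3, had log2 fold changes of 0.20 and 0.11, Ap2m1, an adaptor for CTLA-4 uptake, 0.04, and Fbxo38, which mediates PD-1 turnover, -0.03.

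Of 20 transcription factors tied to checkpoint receptor genes, 0 were called at 1.5-fold, and 5 had an adjusted p under 0.05 at a smaller fold change. Eomes, a T-box factor of effector and memory T cells, went from 517 ± 20.6 to 364 ± 16.6 CPM (SD of 3 libraries, log2 fold change -0.51, adjusted p = 0.0176, edgeR), and for its relative Tbx21 the log2 fold change was 0.45 (adjusted p = 0.0467). Maf (-0.52, adjusted p = 0.0272) and Nr4a1 (-0.57, adjusted p = 0.0306) were lower and Batf (0.48, adjusted p = 0.0390) was higher W/ IL-10. These 5 genes were named for their adjusted p after their values were seen. Of the most abundant factors, Id2 (0.40), Stat3 (0.38) and Nfatc1 (0.01) did not pass (adjusted p = 0.0571, 0.0720 and 0.985, edgeR). The median of the list was 0.01. Counting by an unadjusted p under 0.05, 6 of the 20 were higher and 6 lower, and DESeq2 and limma-voom also called 0 at 1.5-fold. Nr4a1 lay next to the threshold. It was called downregulated with upper-quartile normalization (log2 fold change -0.59, adjusted p = 0.0261, edgeR), with 10 counts required in every library (-0.59, adjusted p = 0.0256) and when W/ IL-10 replicate 2 was left out (-0.69, adjusted p = 0.0215). The number with an adjusted p under 0.05 went from 0 to 7 when 1 library was left out, with 0 when W/O IL-10 replicate 2, W/ IL-10 replicate 1 or W/ IL-10 replicate 3 was left out.

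**Figure D5:**
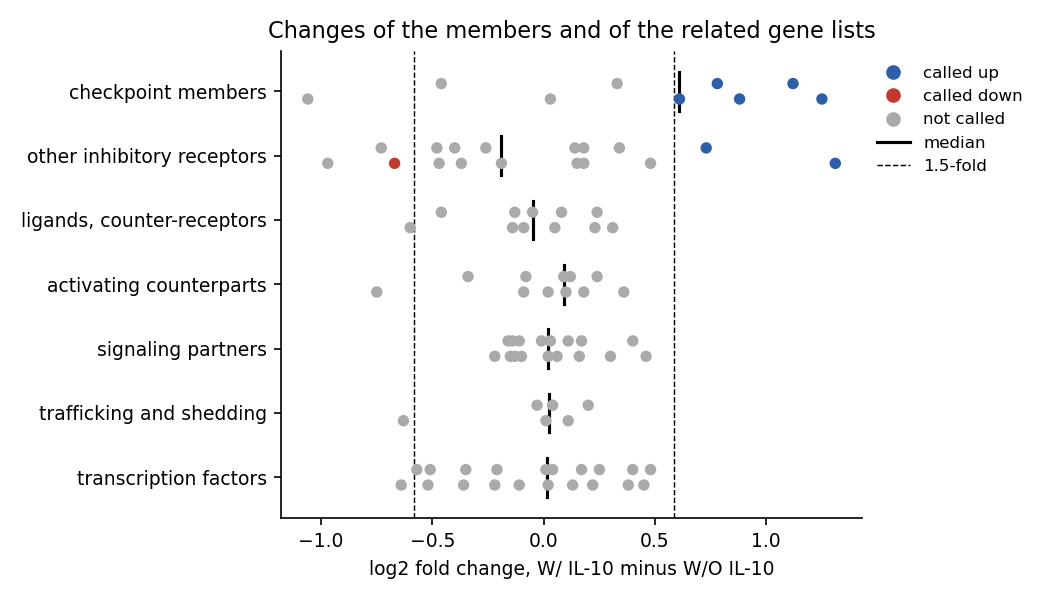
Log2 fold change (W/ IL-10 minus W/O IL-10) of each tested gene in the checkpoint group and in 6 lists of related genes, with genes called up in blue, called down in red and others in gray. Black bars are medians and dashed lines mark 1.5-fold. The median is 0.61 for the 9 checkpoint genes and lies between -0.19 and 0.09 for the other lists.

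Markers of other cells that a preparation of cDNT could hold were summed in each library, in 6 lists. The T cell marker sum (11 genes) was 2824 to 3272 CPM W/O IL-10 and 3748 to 3822 CPM W/ IL-10 (exact permutation test, p = 0.1, adjusted p = 0.300), and 1 of its genes, Cd8b1, was called upregulated (38.1 ± 6.03 to 60.7 ± 5.14 CPM, SD of 3 libraries), a call lost when W/O IL-10 replicate 2 or any W/ IL-10 library was left out. Cd8a was higher as well, short of 1.5-fold (log2 fold change 0.56, adjusted p = 0.0369, edgeR), with no overlap between the groups. Its adjusted p was above 0.05 when W/O IL-10 replicate 2, W/ IL-10 replicate 1 or W/ IL-10 replicate 3 was left out. The T cell marker sum moved with the called receptors, and its part in their change was not tested. The dendritic cell and macrophage sum (14 genes) was 311, 476 and 389.8 CPM W/O IL-10 and 266, 376 and 278 CPM W/ IL-10 (exact permutation test, p = 0.2, adjusted p = 0.400), so the groups overlapped. Of its 12 tested genes 9 had a log2 fold change under 0, with a list median of -0.55, and by an unadjusted p under 0.05 (edgeR) 3 were higher and 3 lower. Csf1r and Flt3 were near 0, at mean levels at or below 0.277 CPM, whereas the dendritic cell factor Zbtb46 was at 6.69 ± 0.466 CPM W/O IL-10 and 4.93 ± 0.347 CPM W/ IL-10, and the MHC class II genes Cd74 (122 ± 36.2 and 81.0 ± 32.6 CPM), H2-Ab1 (55.3 ± 20.3 and 37.1 ± 13.2 CPM) and H2-Aa (52.6 ± 18.4 and 36.1 ± 12.5 CPM, SD of 3 libraries) were present. The part of RNA from such cells in the results was not tested. Itgax, which activated T cells also express, was called upregulated in this list and Ccr7, also a T cell gene, downregulated, a call lost after correcting for GC content and length and when any library but W/O IL-10 replicate 1 was left out. The regulatory T cell sum (5 genes) was 643 to 708 and 785 to 937 CPM (exact permutation test, p = 0.1, adjusted p = 0.300), with Foxp3 near 0 and Il2ra the largest term. The NK cell sum (7 genes) was 1188 to 1735 CPM and 1179 to 1712 CPM (exact permutation test, p = 1), most of it Gzmc (1292 ± 273 and 1343 ± 255 CPM, SD of 3 libraries). The NK cell list moved in both directions, with 4 genes at a log2 fold change above 0 and 3 below, and a median of 0.06. By an unadjusted p under 0.05 (edgeR), 1 was higher and 2 lower. The log2 fold change of Fcgr3 was -0.71 with no overlap between the groups (adjusted p = 0.116, edgeR). DESeq2 called 2 genes of the list downregulated (Ncr1 and Fcgr3), and edgeR called 1 (Ncr1, but not when any library other than W/O IL-10 replicate 1 was left out). The erythroid and platelet sum (7 genes) was at most 25.0 CPM, in W/O IL-10 replicate 1 (exact permutation test, p = 0.4, adjusted p = 0.480).

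For each called gene, the 3 genes with the most similar pattern over the 6 libraries were found by the root mean square difference of log2 CPM, each gene centered on its own mean, among 12975 genes. Lag3 was closest to B4galnt4 (a difference of 0.066), Gzmb (granzyme B, 0.084) and Mxd1 (0.086). The patterns nearest Ctla4 were those of Filip1, Klrc3 and Gpr146, at 0.114 to 0.127, which was the loosest match of the 5 genes. Cd160 was closest to Serpine2 (0.052), Zc3h12d (0.061) and Chst11 (0.066), and Pdcd1 to Atp6v0d2 (0.046), Cdkn2d (0.053) and Farp1 (0.060). Lilrb4a was closest to Klra7 (0.048), Pclaf (0.073) and Parpbp (0.074). These are descriptions of 6 libraries that share a group structure, with no test.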

How the data were processed

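The labels name a TruSeq kit and the paper a NEBNext kit. The authors deposited 1 table of whole-number counts per Ensembl gene for the 6 libraries, not normalized, and all of its value columns were used. The submitters' processing notes name HISAT2, HTSeq and GRCm38, while the methods of the paper name TopHat, Cufflinks and UCSC annotation, and whether strand was used is not given. Groups came from the sample labels.

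The deposited counts were normalized by TMM and tested with the quasi-likelihood test of edgeR 4.0.16 (R 4.3.3) on genes that reached 10 counts in 3 or more libraries, with all 6 in the fit and no block. Adjusted p-values are Benjamini-Hochberg over 14916 genes, and the fold threshold of 1.5 is that of the paper. CPM use TMM-scaled totals. The standard error is the log2 fold change over the square root of F. The median GC trend was measured on exons of GENCODE M21 (GRCm38), in which 29332 of 29393 identifiers were found. Marker sums and ratios were compared by two-sided exact permutation tests. Alternatives were DESeq2 1.42.0, upper-quartile factors, no filter, a filter of 10 counts in all libraries, limma-voom (limma 3.58.1), the replicate number as a block, a spline correction (5 degrees of freedom) for GC content and length with and without that block, a 1.5-fold null hypothesis (glmTreat) and each library left out. The steps were tested on simulated data with changed genes. Promoter sequences are those of RefSeq (GRCm38.p6), cut to the 250 bases before the start. Python 3.11.15, pandas 2.3.3 and matplotlib 3.10.9 handled annotation and plots.

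The 9 genes, the lists and the tests were chosen with earlier results of these data known. Named were the 9 genes, the called genes of each list with at most 4 more of highest mean CPM, and the 3 most similar genes (mean CPM of at least 1) for each called gene. Any other gene was named with its value known.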

Additional observations from a re-analysis of the deposited data

How the results depend on the processing

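Of the 9 genes, Lag3 was called in all 15 alternatives, Cd160 in 14, Ctla4 in 12, Pdcd1 in 11 and Lilrb4a in 8, and of the 9 only Tigit changed direction, to a log2 fold change of -0.02 without W/O IL-10 replicate 1 (adjusted p = 0.948), with a range of -0.02 to 0.06 over the libraries left out. Over all genes, 217 were called, against 359 with DESeq2, 639 with no filter on low counts, 354 with the GC and length correction in a replicate block, 15 against a 1.5-fold null hypothesis and 35 to 254 when 1 library was left out, fewest without W/ IL-10 replicate 3. Of the 9 genes, 5 were called upregulated, 1 against a 1.5-fold null hypothesis and 2 to 4 with 1 library left out. The count called downregulated was 0, and 1 (Cd200) with DESeq2, with no filter and with the correction in a replicate block. The number with an adjusted p under 0.05 was 5, and 2 to 6 with 1 library left out. The summed NK cell marker level differed by 28.1 CPM, and by -111 to 193 CPM with 1 library left out, with -27.6 without W/O IL-10 replicate 2, -80.7 without W/O IL-10 replicate 3 and -111 without W/ IL-10 replicate 1. The causes were not tested. The replicate block gave 196 called genes (103 up, 93 down), 4 of them among the 9 genes. It lost Lilrb4a (adjusted p = 0.0592) and changed no other call of the 9. Deviations from the group means of libraries with the same number correlated at 0.0524, -0.0573 and 0.1136. Libraries with different numbers were not compared in this way, so these values cannot decide whether libraries with the same number share more than it. Btla and Cd200 had 23 to 165 counts per library, and their 95% intervals were the widest of the 9 genes.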
